A study of Mus musculus with 12 samples.

Results

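The genes described here are 8 lysosome genes of the mouse: the protein activator precursor Psap, the proteases Ctsb, Ctsd, Ctsl, Ctsz and Lgmn, the membrane protein Lamp1, and the progranulin gene Grn. They were taken by gene symbol from both deposited tables, where 8 of 45706 genes in the blastocyst table and 8 of 13009 genes in the ES cell table matched. The 8 were chosen by name, and Psap was also selected on its mean in the blastocyst table, so its level there is a description and supports nothing. The study measured RNA in Dis3l knockout and wild-type mouse embryos and cells by sequencing. Dis3l encodes the nuclease subunit of the exosome of the cytoplasm, which breaks down RNA starting at the 3′ end. By the labels there were 12 samples, 3 in each of 4 groups: knockout blastocysts, wild-type blastocysts, knockout ES cells and wild-type ES cells. Blastocysts, the embryo stage before implantation, were collected 96 hours after the females received hCG, and each library came from a single embryo by Tn5 tagmentation of cDNA. ES cell lines, pluripotent cells derived from blastocysts, were raised on inactivated mouse embryonic fibroblasts and kept with 500 IU/ml of the cytokine LIF, and their libraries were stranded and depleted of ribosomal RNA. The labels name neither the strain nor the Dis3l allele, and do not say how many independent ES cell lines stand behind a group.

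Lysosomes are acidic organelles in which hydrolases break down material delivered by endocytosis and autophagy. A proton pump in the membrane sets the low pH, heavily glycosylated membrane proteins line the inside, and most soluble hydrolases travel from the Golgi as inactive precursors bound to mannose 6-phosphate receptors or sortilin. Many lysosome genes carry a CLEAR element, a short sequence around CACGTG that the transcription factor TFEB and its relatives recognise. The outer layers of the early embryo are known for taking up and digesting material from their surroundings.

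Both deposited tables hold statistics per gene and no values per sample. Which genotype is on which side is not given, so signs are given as deposited: a gene higher on the positive side has a log2 fold change above 0. Each deposited mean is a sum of whole reads weighted by a fixed factor per count column, and the reads of each column were recovered from the means and, in blastocysts, the fold changes. The blastocyst table held 6 such columns, 3 on each side. The ES cell table held 4, 2 on each side, although the labels list 6 ES cell samples. Columns were numbered within a side by falling size factor and were not assigned to a genotype or a sample. Size factors ran from 0.695 to 1.62 in blastocysts and from 0.759 to 1.25 in ES cells, where the 4 columns held 933259 to 1527881 reads over 12862 of 13009 genes. The knocked-out gene gave few reads. In blastocysts Dis3l had 18.6, 8.12 and 0 normalised reads in the positive columns and 6.18, 4.46 and 11.5 in the negative columns, so the sides overlapped. In ES cells it had 11.2 and 10.5 in the positive and 37.1 and 37.7 in the negative columns, apart, with an adjusted p of 0.445 in the authors' deposited table. Of the 10 macrophage markers listed, 10 were at 0 in blastocysts and none was listed in ES cells, and 8 of 12 fibroblast markers, Col1a1, Col1a2 and Col3a1 among them, were at 0 in blastocysts. The 9 trophectoderm, 10 primitive endoderm and 10 pluripotency markers were above 0 in blastocysts, with summed means of 21346, 11683 and 3861, and the 10 pluripotency markers summed to 6153 in ES cells.

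None of the 8 genes passed the test of a difference between the sides in either material. The authors' deposited tables, made with DESeq2 per the submitters' processing notes, gave an adjusted p under 0.05 to 0 of the 8 in blastocysts, against 0.0986% of all tested genes, and to 0 of the 8 in ES cells, against 0.261%. At an unadjusted p under 0.05 the count was also 0 of 8 in each table, against a background of 6.21% in blastocysts and 5.62% in ES cells. In blastocysts 6 of the 8 log2 fold changes were above 0, with a median of 0.27, while the median over all 15209 tested genes was -0.04. In ES cells 3 of 8 were above 0, with a median of -0.08 against -0.00011 over 10739 genes. The ES cell fold changes appear shrunken towards 0, so sizes cannot be compared between the tables. In these bulk samples, fewer cells of a type and less RNA per cell cannot be told apart.

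The promoters are shown first because they carry a feature that the choice of genes did not use. RefSeq promoters on GRCm38.p6 ran from 250 bases before to 50 bases after the gene start that RefSeq gives. They were matched for 7 of the 8 genes, Ctsb being the other. CACGTG, which reads the same on both strands, was found in the promoter of 8.09% of all 27025 genes, of 27 of 105 other lysosome genes (25.7%), and of 4 of the 7: Lamp1, Ctsd, Lgmn and Ctsl. The longer TCACGTG, which contains CACGTG, was found on either strand in 4.29% of all genes, in 24.8% of the other lysosome genes, and in Lamp1, Ctsd and Lgmn. Lamp1 held 4 copies of CACGTG within 68 bases, and the other 3 are shown for comparison. The windows read 5′ to 3′ on the gene's strand, with CACGTG in capitals.
Lamp1 (chr8:13159092-13159159, + strand): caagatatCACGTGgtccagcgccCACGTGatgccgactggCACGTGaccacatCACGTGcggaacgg
Ctsd (chr7:142387908-142387937, − strand): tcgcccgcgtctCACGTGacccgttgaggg
Lgmn (chr12:102439124-102439153, − strand): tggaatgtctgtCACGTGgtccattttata
Ctsl (chr13:64370739-64370768, − strand): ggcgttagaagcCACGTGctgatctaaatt
Counted from the RefSeq start, the Lamp1 copies began 61, 45, 28 and 15 bases before it and the Ctsd copy shown here 98 bases before. That of Lgmn began 49 bases before the start of the second of its promoters, and that of Ctsl 236 bases before. The spans listed in the blastocyst table have other starts. The Ctsd and Lgmn windows shown and part of the Lamp1 stretch lie inside those spans. A second copy in the Ctsd promoter began 245 bases before the start. The Psap, Ctsz and Grn windows held no CACGTG, which says only that these letters are not in these 300 bases. A match is a description of sequence, and no file of the study measures binding there.

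Psap (chr10:60277627-60302597, GRCm38) encodes prosaposin, which is cut in the lysosome into saposins, small proteins that present sphingolipids to their hydrolases. Its deposited mean in blastocysts was 31124 normalised reads, the second highest of 13308 protein-coding genes above 0, and per kilobase of its longest transcript the level was 11714, again the second. This is the value for which it was chosen. In ES cells its mean was 363 and its level per kilobase 137, rank 582 of 12997. Across the 8 genes, levels per kilobase in blastocysts ran from Psap through Lamp1 at 1953, Grn at 633, Ctsd at 548, Lgmn at 420, Ctsl at 243 and Ctsb at 107 to Ctsz at 100.4. The column range of Lamp1, 1473 to 2812, lay above that of Grn, 306 to 881. From Grn downwards, each gene's range over 6 columns overlapped that of the next. Such ranges ignore that the genes were read in the same columns, and a difference between neighbours within columns was not tested.

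The order in ES cells was another one. Lamp1 was highest at 415 per kilobase, followed by Ctsd at 273, Psap at 137, Ctsl at 72.3, Ctsb at 50.8, Lgmn at 41.4, Grn at 40.6 and Ctsz at 39.5. From Lamp1 down to Ctsb, no gene's column range overlapped that of the gene before it: Lamp1 held 360 to 492, Ctsd 257 to 283, Psap 110 to 162, Ctsl 63.2 to 85.8 and Ctsb 42.1 to 58.0. Ctsb, Lgmn, Grn and Ctsz overlapped each with the next. The place of Ctsl rests on the transcript length: with the median length of its protein-coding transcripts, 0.834 kb in place of 6.17 kb, its level was 1797 in blastocysts and 535 in ES cells, and with the same rule Grn, at 1.04 kb in place of 2.34 kb, stood at 1425 and 91.3.

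Levels of the materials were set side by side over the 11453 protein-coding genes above 0 in both tables, as a share of the summed level per kilobase, in ppm. The tables were normalised separately and the library methods differ, so material and method cannot be told apart here. Psap stood at 10158 ppm in blastocysts and at 293 in ES cells, a ratio of 34.6. The median gene with a mean of at least 50 in both tables had a log2 ratio of -0.63. Lars2 alone took 214821 ppm in blastocysts, which lowers every other share there. Relative to that median gene, the log2 ratio was 5.75 for Psap, 3.29 for Grn, 2.67 for Lgmn, 1.56 for Lamp1, 1.08 for Ctsl, 0.67 for Ctsz, 0.40 for Ctsb and 0.34 for Ctsd. The same length of a gene was applied to both tables, so this order does not depend on the length used. The listed spans of Ctsl, Ctsd, Lamp1 and Ctsb differ between the tables, and the effect of this on the ratios was not tested. The ratio of Psap rests on the blastocyst level for which it was chosen, so its place among other genes is not given. Among 4957 genes, 99.3% had a smaller ratio than Grn and 98.2% a smaller one than Lgmn, while Ctsd, at 61.9%, and Ctsb, at 64.3%, stood nearer to the middle. These places describe the tables and were not tested.

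**Figure D1:**
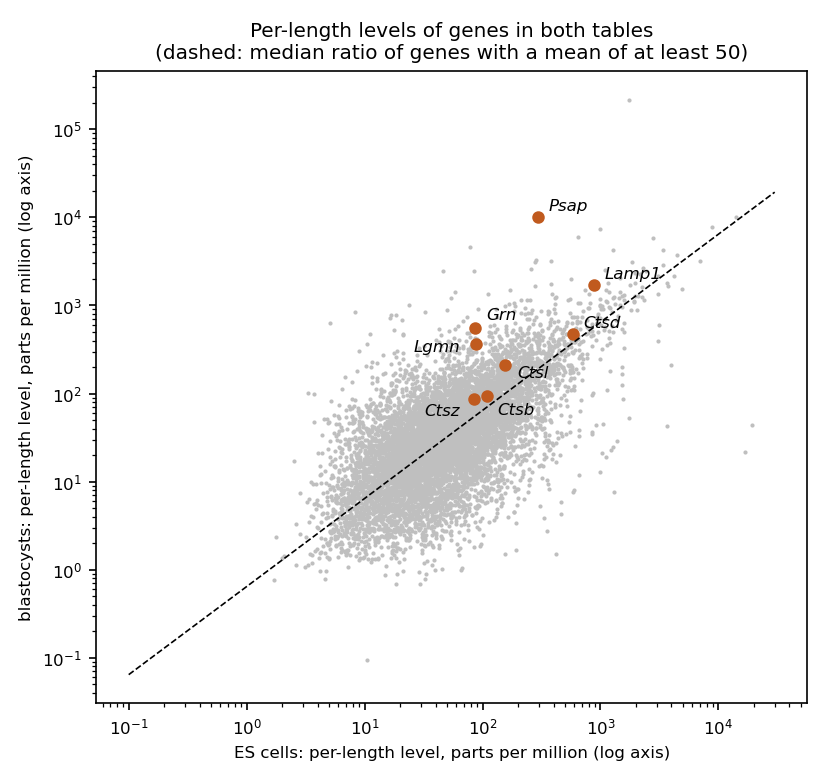
Per-length level in blastocysts (vertical log axis) against ES cells (horizontal log axis), as ppm of the summed level, for genes with a mean of at least 10 in both tables; lysosome genes are in orange and the dashed line is the median ratio. Psap lies far above the line, Grn and Lgmn above it, and Ctsb and Ctsd near it.

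The genes whose levels were most like those of Psap, by the summed absolute difference in log2 level per kilobase over the 2 materials among 4957 genes, were mt-Nd4, mt-Nd2 and mt-Cytb. They were still far away, with summed differences of 1.68, 1.80 and 1.88. mt-Nd4, for example, stood at 3803 per kilobase in blastocysts and 131 in ES cells.

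In blastocysts the reads of Psap per column were not searched for, because its mean was above the limit set for the search. Its side means, which follow from the deposited mean and fold change, were 33925 normalised reads on the positive and 28324 on the negative side. For Psap the authors' deposited table gave a log2 fold change of 0.26 (standard error, SE, 0.26) and an unadjusted p of 0.316 (adjusted p = 0.834). Only 0.723% of tested genes had a smaller SE. The 95% Wald interval, from -0.25 to 0.77, leaves a ratio between 0.841 and 1.7. In ES cells Psap had 367 and 292 normalised reads in the positive and 430 and 364 in the negative columns. The sides just overlapped, and the authors' deposited table gave -0.23, SE 0.23.

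Of the proteases, Ctsd and Ctsb varied least between blastocyst columns. Ctsd (chr7:142371148-142388038 in the blastocyst table) encodes the main aspartic protease of lysosomes. In blastocysts it had 1096, 1183 and 1056 normalised reads in the positive columns and 1233, 1255 and 1171 in the negative ones. All 6 columns lay within a narrow band and the sides overlapped, and the authors' deposited table gave a log2 fold change of -0.13, SE 0.25. In ES cells Ctsd had 579 and 546 in the positive and 591 and 603 in the negative columns. The sides lay apart there, by a log2 ratio of only -0.09.

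Ctsb (chr14:63122462-63145919 in the blastocyst table) encodes a cysteine protease with both endopeptidase and peptidyl-dipeptidase activity. In blastocysts it had 398, 408 and 537 normalised reads in the positive columns and 559, 537 and 610 in the negative ones. The sides did not overlap, but positive column 3, at 537.1, and negative column 2, at 537.4, were all but equal. Ctsb was the only gene of the 7 with recovered reads whose sides lay apart in blastocysts. Such separation was seen in 13.3% of 4207 genes with a mean of 100 to 500, a range just below the Ctsb mean of 508. The negative side was higher, as in Ctsb, in 6.89%, and the positive side in 6.39%. The authors' deposited table gave -0.35, SE 0.31 (adjusted p = 0.811), and the interval, from -0.96 to 0.27, leaves a ratio between 0.514 and 1.2. In ES cells Ctsb had 220 and 275 in the positive and 199.7 and 269 in the negative columns, which overlapped in part. Exons of Ctsb share 774 bases with Fdft1 on the opposite strand, whose mean was 160 in blastocysts, and whether the counting used strand is not given in the sources used here. Exons of Ctsd share 808 bases with Gm49369 on the same strand, those of Ctsl 1742 bases with the antisense gene Gm47123, and those of Lamp1 249 bases with Grtp1 on the opposite strand, so reads there are uncertain.

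Ctsz, Lgmn and Ctsl varied most between blastocyst columns, and they did so in the same columns. Ctsz (chr2:174427493-174439039) encodes cathepsin Z, a carboxypeptidase. It had 154, 237 and 194 normalised reads in the positive columns and 24.7, 214 and 43.2 in the negative ones. Negative columns 1 and 3 were far below every other column, while negative column 2 was as high as the positive side, so the highest negative column was 8.65 times the lowest. Behind these values stood 40 and 30 whole reads in negative columns 1 and 3 and 170 to 234 in the others. All were even, as when both mates of a pair are counted, so the fragments behind them may be fewer. For Ctsz the authors' deposited table gave a log2 fold change of 1.06, SE 0.71, and an unadjusted p of 0.136 (adjusted p = 0.811). Its interval, from -0.33 to 2.45, is the widest of the 8 and allows a ratio of up to 5.46.

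Lgmn (chr12:102394084-102439813) encodes legumain, an asparaginyl endopeptidase that cuts the cathepsin precursors to their mature forms. It had 799.5, 1125 and 1092 normalised reads in the positive columns and 374, 1153 and 469 in the negative ones. Ctsl (chr13:64363214-64370306 in the blastocyst table) encodes the cysteine endopeptidase cathepsin L. It had 1843, 1579 and 1518 in the positive columns and 675, 2415 and 961 in the negative ones. In both genes, as in Ctsz, negative columns 1 and 3 were the lowest of all and negative column 2 stood within or above the range of the positive side, and the sides overlapped. The authors' deposited table gave log2 fold changes of 0.60 for Lgmn, SE 0.41, and 0.29 for Ctsl, SE 0.40. Without negative column 2 they became 1.26 and 1.01, and that of Ctsz became 2.54. Without negative column 1 that of Ctsl became -0.04.

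**Figure D2:**
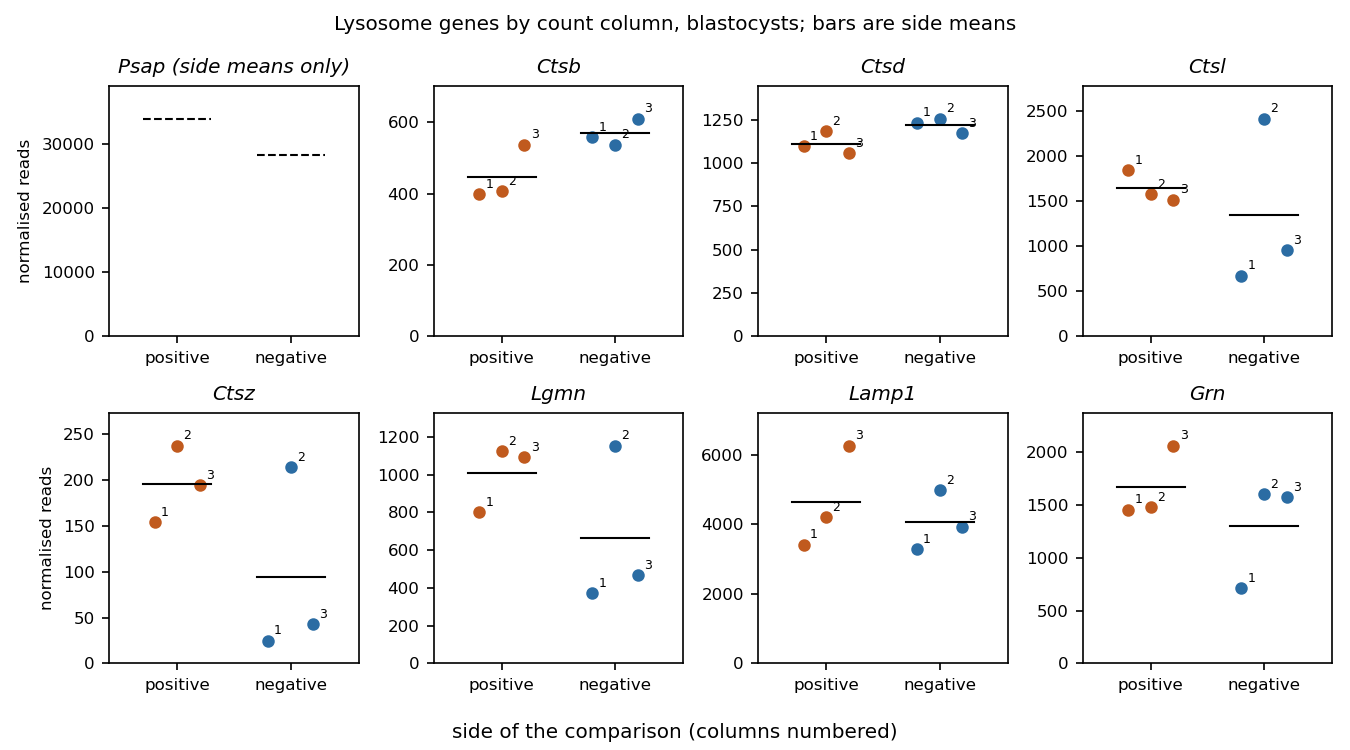
Normalised reads (vertical axes from 0) of each lysosome gene in the numbered blastocyst columns of the positive (orange) and negative (blue) side; black bars are side means, dashed for Psap, whose columns were not determined. Ctsz, Lgmn and Ctsl are low in negative columns 1 and 3 and high in negative column 2, while Ctsd is level in all 6.

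How common this order is was counted after the reads had been seen. Among the 4207 genes with recovered reads and a mean of 100 to 500, negative columns 1 and 3 were the 2 lowest in 15.2% and the 2 highest in another 15.2%. Of the 7 lysosome genes here with recovered reads, only Ctsz, with a mean of 145, lay in that range, so the background is not matched to the others. Negative columns 1 and 3 were the lowest in 3 of these 7, and the highest in 1, Ctsb. Among 125 other lysosome genes they were the lowest in 22 (17.6%), including the proteases Ctsa, Ctsc and Dpp7, and the highest in 13 (10.4%), including Cd63 and Smpd1. Some markers of embryo cell types were low or high in the same columns. Of 9 primitive endoderm markers with recovered reads, 5 were lowest in negative columns 1 and 3: Sox7, Dab2, Col4a1, Sparc and Foxa2. Gata6 was highest there, and Gata4, Sox17 and Pdgfra were neither. Foxa2 rested on few reads, 0 in both of these columns and 10 to 68 in the others. Sox7 had 0 and 2 reads there and 42 to 278 in the others. Of 8 trophectoderm markers, 2 were lowest there (Gata3 and Elf5), 2 were highest (Krt18 and Tead4) and 4 were neither. Of 10 pluripotency markers, 0 were lowest and 3 were highest there: Pou5f1, Nanog and Tdgf1. Col4a1, a basement membrane collagen, had 1459, 1494 and 1259 normalised reads in the positive columns and 688, 2413 and 731 in the negative ones. Sparc, which encodes a matrix protein, had 1218, 1618 and 1481, and 547, 2089 and 791. The trophoblast transcription factor gene Elf5 had 425, 583 and 827, and 189, 790 and 196, and the keratin gene Krt18 went the other way, with 6278, 5458 and 6310, and 11107, 5593 and 11322. The summed primitive endoderm markers ranged from 7594 to 8588 in the positive columns and from 5690 to 10772 in the negative ones, and the summed trophectoderm markers without Krt8 from 14055 to 16070 and from 13170 to 18893. The summed pluripotency markers ranged from 2755 to 4443 and from 4212 to 4618. The part of these markers in the values of Ctsz, Lgmn and Ctsl was not tested.

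**Figure D3:**
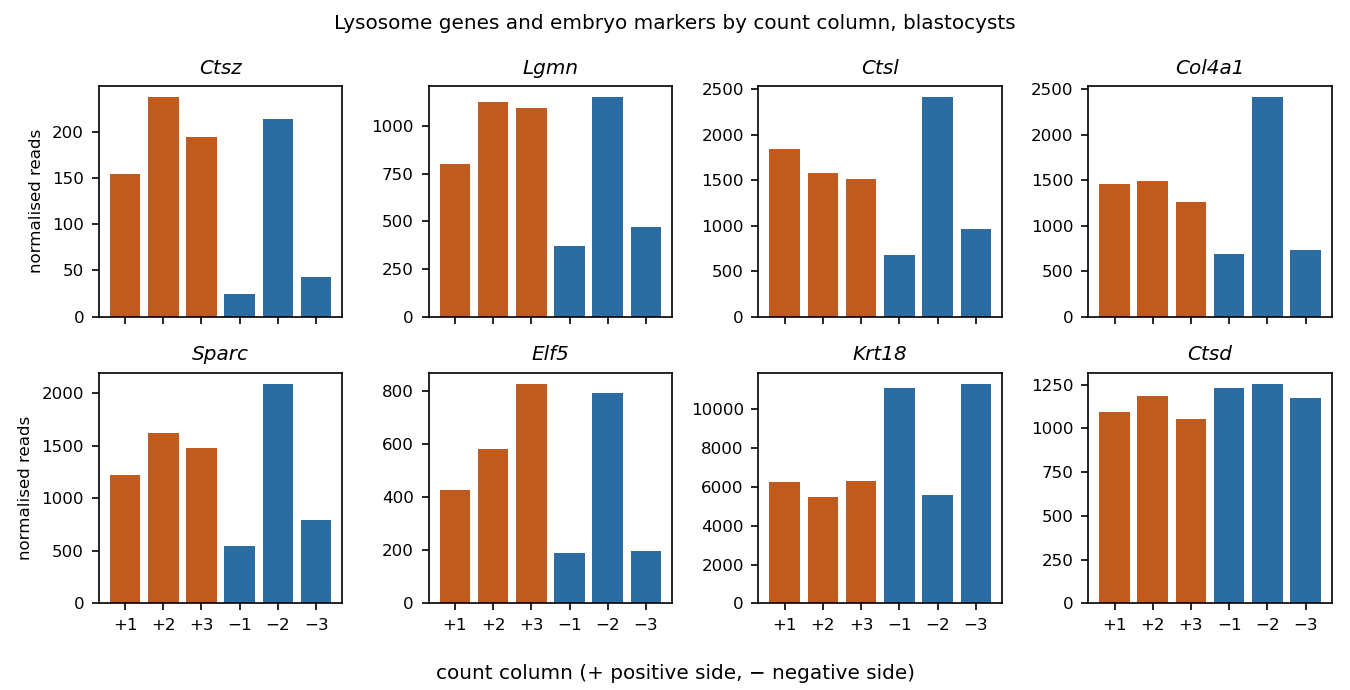
Normalised reads (bars from 0) in the 3 positive (orange) and 3 negative (blue) blastocyst columns for Ctsz, Lgmn and Ctsl, the markers Col4a1, Sparc, Elf5 and Krt18, and Ctsd for comparison. Negative columns 1 and 3 are low and negative column 2 high in all but Krt18, which is reversed, and Ctsd, which is level. The markers shown were picked from those with this order or its reverse, so their likeness to Ctsz, Lgmn and Ctsl is no support. Of the primitive endoderm markers not shown, Gata6 was highest in negative columns 1 and 3, and Gata4, Sox17 and Pdgfra had neither order.

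In ES cells the same 3 proteases showed no such spread. Ctsz had 57.5 and 65.8 normalised reads in the positive and 57.0 and 47.3 in the negative columns, so the sides lay just apart. Lgmn had 65.5 and 93.5, and 80.8 and 89.9, and Ctsl had 390 and 529, and 463 and 403, and both overlapped. In that order, the authors' deposited table gave log2 fold changes of 0.16, -0.08 and 0.07 (SE 0.31, 0.29 and 0.23).

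Lamp1 (chr8:13159135-13175338 in the blastocyst table) encodes one of the most abundant proteins of the lysosomal membrane. In blastocysts it had 3419, 4212 and 6269 normalised reads in the positive columns and 3284, 4995 and 3936 in the negative ones. Positive column 3 was highest and the sides overlapped. The authors' deposited table gave a log2 fold change of 0.19, SE 0.29, which became -0.09 without positive column 3. In ES cells Lamp1 had 829 and 802 in the positive and 967 and 1098 in the negative columns. The sides lay apart, with means of 816 ± 19.5 (SD, n = 2) and 1032 ± 92.4 (SD, n = 2), but the log2 fold change of -0.30 that the authors' deposited table gave, SE 0.20, had an unadjusted p of 0.136 (adjusted p = 0.9996). Its interval, from -0.70 to 0.10, or a ratio of 0.614 to 1.07, is centred on a fold change that appears shrunken. It may therefore lie too near 0 and does not bound the ratio. With the shrinkage approximately undone, the log2 fold change was -0.34.

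Grn (chr11:102430315-102437048) encodes progranulin, a secreted and lysosomal glycoprotein that is cut into granulins and binds prosaposin. In blastocysts it had 1455, 1482 and 2061 normalised reads in the positive columns and 716, 1603 and 1574 in the negative ones. Negative column 1 stood below all the others, and the sides overlapped. The authors' deposited table gave a log2 fold change of 0.36, SE 0.34, which became 0.07 without negative column 1. In ES cells Grn had 84.6 and 80.3 in the positive and 92.2 and 122.7 in the negative columns, which lay apart. There the authors' deposited table gave -0.29, SE 0.28, and the log2 ratio of the recovered reads was -0.38.

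**Figure D4:**
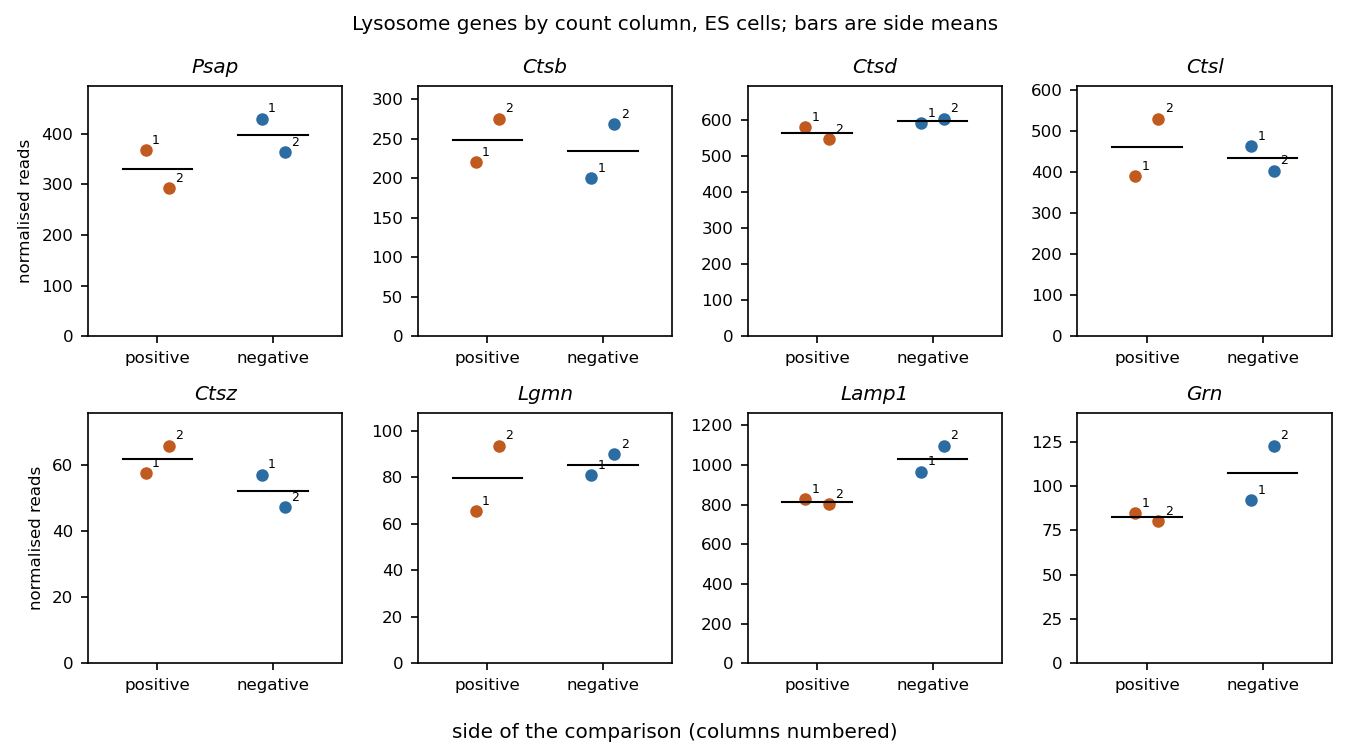
Normalised reads (vertical axes from 0) of each lysosome gene in the numbered ES cell columns of the positive (orange) and negative (blue) side, with black bars for side means. Lamp1, Grn and Ctsd are higher and Ctsz lower in both negative columns, and the other 4 genes overlap.

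In ES cells the sides thus lay apart in 4 of 8 genes, Lamp1, Grn and Ctsd being higher on the negative side and Ctsz on the positive side. Sides lay apart in 40.4% of the 10592 tested genes with recovered reads, in 20.3% with the negative and in 20.1% with the positive side higher, so 4 of 8 is near the background. Negative column 2 stood apart in matrix genes of fibroblasts: the 12 fibroblast markers summed to 2499 normalised reads there and to 868 to 948 in the other columns. Of the 12, 9 were highest in that column, Col3a1 with 865 against 44.7 to 73.7, and 3 were lowest there, S100a4, Thy1 and Twist1, with S100a4 at 42.5 against 96.0 to 116. The 8 lysosome genes summed to 2996 in that column, and to 2881 in negative column 1, 2593 in positive column 1 and 2685 in positive column 2. The part of feeder cells in these values was not tested.

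The wider set of 132 lysosome genes, listed by role without the 8, was examined next. In blastocysts 127 were tested, 68 with a log2 fold change above 0 and 59 below, with a median of 0.07 against -0.04 over all genes. The authors' deposited table, made with DESeq2, gave an adjusted p under 0.05 to 0 of the 127. At an unadjusted p under 0.05 there were 4 above 0, against 2.68% of all genes in that direction, and 2 below 0, against 3.53%. Together they were 4.72% of the 127, under the background of 6.21%. In ES cells 120 were tested, 62 above and 58 below 0, with a median of 0.01. Again 0 had an adjusted p under 0.05. At an unadjusted p under 0.05 there were 4 above 0, against 2.21% of all genes, and 5 below 0, against 3.42%, together 7.5% against 5.62%.

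By role, medians in blastocysts lay on both sides of 0, and no difference between roles was tested. Of 23 glycosidases and sulfatases, 17 lay above 0, with a median of 0.36. Of 26 membrane proteins, 18 lay below 0, with a median of -0.16, and of 18 proton pump genes 11 lay below 0, with a median of -0.16. The 18 sorting genes had a median of 0.26, the 16 regulators 0.08, the 13 lipases, phosphatases, nucleases and activators 0.07, the 10 proteases 0.06 and the 3 cystatins 0.03. Of the 10 proteases 5 lay above 0, and of the 13 lipases, phosphatases, nucleases and activators 7. Over all tested genes 48.3% lay above 0. In ES cells the medians ran from -0.30 for the 2 cystatins to 0.11 for the 16 regulators, and 14 of 17 proton pump genes lay below 0, with a median of -0.07.

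**Figure D5:**
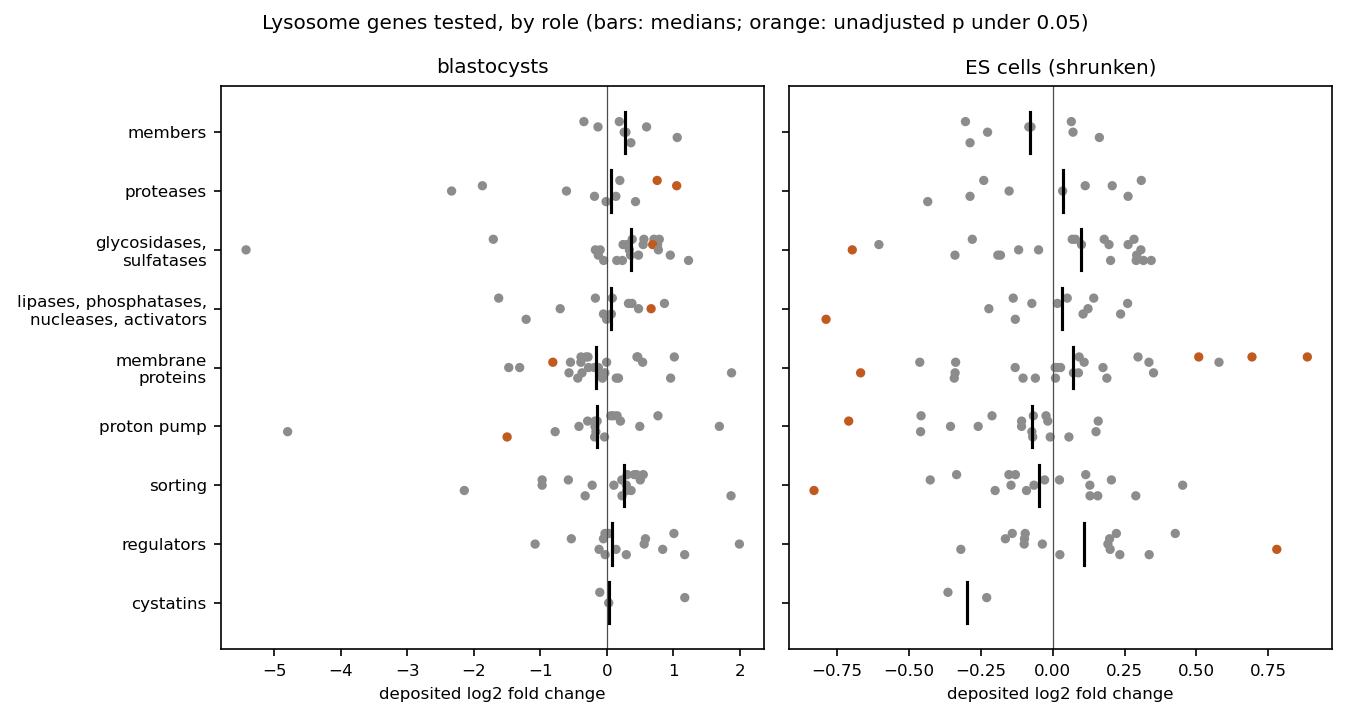
Deposited log2 fold changes (horizontal axes) of the tested lysosome genes by role in blastocysts and ES cells, each panel on its own scale; black bars are medians and orange points have an unadjusted p under 0.05. Medians lie between -0.16 and 0.36 in blastocysts and between -0.30 and 0.11 in ES cells, and none of the points has an adjusted p under 0.05.

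The smallest unadjusted p-values above 0 in blastocysts belonged to 3 hydrolase genes, of which Ctsa and Neu1 encode partners in a complex. In the authors' deposited table Ctsc, which encodes dipeptidyl peptidase 1, had a log2 fold change of 1.05 ± 0.40 (standard error; adjusted p = 0.546). Ctsa, which encodes the protective protein cathepsin A, had 0.76 ± 0.34 (adjusted p = 0.737), and the sialidase gene Neu1 had 0.69 ± 0.34 (adjusted p = 0.772). Below 0, the authors' deposited table gave -0.81 ± 0.32 for the tetraspanin gene Cd63 (adjusted p = 0.580), -1.50 ± 0.69 for the proton pump subunit gene Atp6v1f (adjusted p = 0.744), and -0.97 ± 0.52 for Gnptab, which encodes the enzyme that makes the mannose 6-phosphate tag (adjusted p = 0.811).

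In ES cells other genes came first. In the authors' deposited table Laptm4b, a membrane protein gene, had a log2 fold change of 0.89 ± 0.33 (standard error; adjusted p = 0.423), and the Rag GTPase gene Rragd had 0.78 ± 0.30 (adjusted p = 0.463). Below 0, the authors' deposited table gave -0.83 ± 0.27 for the sorting receptor gene Sorl1 (adjusted p = 0.217), -0.71 ± 0.26 for the proton pump accessory gene Atp6ap2 (adjusted p = 0.433) and -0.79 ± 0.33 for Gm2a, which encodes the GM2 activator (adjusted p = 0.594). None of these passed the threshold, and no gene of the wider set was among the first 3 in the same direction in both tables.

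The highest level per kilobase among other lysosome genes in blastocysts belonged to Cstb, which encodes the cathepsin inhibitor cystatin B, at 1246, followed by Gm2a at 959 and the acid sphingomyelinase gene Smpd1 at 613. Each was below Lamp1 and far below Psap. The proton pump was led by Atp6v0b at 504 and Atp6v0d1 at 437, the membrane proteins by Cd63 at 433 and Cd164 at 287, and the proteases by Ctsa at 422 and Scpep1 at 227. Hexa at 412 and Glb1 at 310, which encode subunits of hexosaminidase and beta-galactosidase, led the glycosidases. The sorting adaptors Gga2 at 322 and Ap3d1 at 247, the regulators Tfeb at 227 and Rragc at 166, and the second cystatin, Cst3 at 237, completed the list.

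In ES cells Manba, the beta-mannosidase gene, was highest at 218 per kilobase, ahead of Asah1 at 145, Atp6v0b at 138 and Ap3b1 at 130.01. Cst3 stood at 119 and Cstb at 86.8, Lamp2 at 109 and Cd164 at 86.0, Atp6v0d1 at 108, Vps26a at 98.1, and Npc2 at 76.7. Fnip1 at 66.9, Ctsa at 64.0, Scpep1 at 63.2 and Fnip2 at 51.8 were lower. Gm2a, the second highest of the wider set in blastocysts, stood at 3.85 per kilobase in ES cells. Like the saposins, its product is an activator of sphingolipid breakdown rather than an enzyme. Ctsa, Scpep1, Cd164, Atp6v0b, Atp6v0d1, Cst3 and Cstb were among the 2 highest of their role in both materials. For Cst3 and Cstb this was fixed in ES cells, where only 2 cystatins were listed.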

How the data were processed

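RNA sequencing of blastocysts and ES cells was analysed from 2 tables of comparison statistics, 1 per material, with 0 columns of per-sample values. Per the submitters' processing notes, the tools named include STAR 2.4.0b, featureCounts in Subread 2.0.1 and DESeq2 1.34.0, and the build was GRCm38. Per the file headers, the signal column is the authors' mean of normalised reads, the log2 columns are the authors' log2 fold change with its SE, and the score column holds their Wald statistic. The p-value columns are the authors' unadjusted and adjusted p-values, per the file headers. The direction of the comparison is not given in the sources used here.

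The 8 genes and the gene lists were chosen with earlier results of these data known. A gene was counted as changed where the authors' adjusted p was under 0.05. Further genes were named by rule: any lysosome gene past that threshold, the 3 with the smallest p in each direction per table, the 2 highest per kilobase in each role, and the 3 genes nearest to Psap in level among those with a mean of at least 50. In ES cells 2 genes that this rule names are not reported here. Lengths came from GENCODE M21, where 45143 of 45706 and 12997 of 13009 gene IDs were found. Levels are deposited means per kilobase of the longest transcript.

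Whole reads per count column were recovered from the deposited means alone in ES cells. For most blastocyst genes they were the single combination, within the region searched, that gave both the mean and the log2 fold change. The log2 fold change had to be met to within 5e-14 in a negative binomial fit of both sides without shrinkage. The matches expected by chance were at most 4.6e-05 for any of the 7 lysosome genes solved this way. In 60 of 60 blastocyst genes solved from the mean alone this fit gave back the deposited log2 fold change. On simulated data 40 of 40 blastocyst genes were recovered, all of them given even reads only, so odd reads were not tested there. The simulated means were drawn below those of Lamp1 and Krt18, so means that high were not tested either. Of blastocyst read values at means under 5, 92.7% were even, as when both mates of a pair are counted. In blastocysts reads were not searched for in Psap and were not found for Fnip2, Manba, Krt8 and Lama1. Amplified reads are not independent molecules, and p-values measure only the spread between these samples. Python 3.11.15 with numpy 2.4.6, pandas 2.3.3 and scipy 1.17.1 was used. Alternatives were another threshold, other sets of genes to adjust over, rescaled statistics, autosomal genes, other lengths, leaving out columns, and undoing the shrinkage.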

Additional observations from a re-analysis of the deposited data

How the results depend on the processing

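In both materials the count of changed genes stayed at 0 of the 8 lysosome genes, and at 0 of the wider set, with a threshold of 0.01, with adjustment over every gene that has a p-value, with only genes of a mean of at least 50, with Wald statistics rescaled to a robust SD of 1, and with autosomal genes only. The lowest adjusted p under these settings was 0.808 for the 8 genes, in blastocysts with a mean of at least 50, and 0.0694 for the wider set, in ES cells with rescaled statistics. Psap was chosen for its blastocyst level, so its ratio to the other genes there is a description and supports nothing. It stood 27.9 times above the median of the other 7 genes per kilobase in blastocysts. With the union of all exons the ratio was 31.5, and with the median length of protein-coding transcripts 20.4. In ES cells the ratio was 2.69, and 3.33 and 1.5 with these lengths. Leaving out 1 column moved log2 fold changes in blastocysts from 0.60 to 2.54 for Ctsz, 0.31 to 1.26 for Lgmn, -0.04 to 1.01 for Ctsl, -0.09 to 0.36 for Lamp1, 0.07 to 0.54 for Grn, -0.50 to -0.27 for Ctsb and -0.18 to -0.10 for Ctsd. In ES cells the sign changed for Ctsb, Ctsl and Lgmn. The ratio of the recovered reads moved no log2 fold change by more than its SE in either material. Undoing the shrinkage in ES cells gave -0.34 for Lamp1 and -0.38 for Grn. No paired analysis was possible because the tables hold no values per sample and the recovered columns carry no replicate numbers from the labels. Depth limits Ctsz most, with 30 to 234 reads per blastocyst column, all of them even, so the fragments may be fewer.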

Other observations

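Mouse has a cluster of genes related to Ctsl on chromosome 13, several of them active in the placenta. Of 9 such genes looked up after the other values had been seen (Ctsll3, Ctsj, Ctsm, Ctsq, Ctsr, Cts3, Cts6, Cts7 and Cts8), 1 was above 0 in the blastocyst table and none was listed in the ES cell table. That gene was Ctsll3 (chr13:60798250-60802844), for which the authors' deposited table gives a mean of 114 normalised reads. Its log2 fold change there is 3.13, SE 0.95, but no p-value is given. This fold change therefore carries no test, and whether a single column sets it was not examined.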
